A study of Danio rerio with 2 samples.

Results

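The yolk syncytial layer (YSL) is a multinucleate layer at the surface of the zebrafish yolk cell, formed when marginal blastomeres collapse into it. It lies between the yolk and the blastoderm. It breaks yolk down and exports its lipids and other nutrients to the embryo, it secretes plasma proteins before a liver exists, and it is a source of the Nodal ligands that induce mesendoderm at the margin. Because the layer is a syncytium it has no cells of its own, and the sources used here do not say what a droplet barcode with its transcripts captured (a nucleus, or a piece of cytoplasm with nuclei).

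Barcodes with YSL profiles were chosen by their measured UMIs (unique molecular identifiers, which count captured mRNA molecules). A barcode was chosen with at least 2 summed UMIs of *mxtx1*, *mxtx2* and *slc26a1* and fewer than 10 summed UMIs of the keratins *krt4*, *krt5*, *cyt1* and *cyt1l*. *mxtx1* and *mxtx2* encode homeodomain transcription factors of the YSL, and *slc26a1* encodes an anion transporter. The keratins mark the enveloping layer, the outer epithelium of the embryo, which shares the margin with the YSL. The rule chose 132 of 16773 barcodes.

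The data are from whole embryos at the shield stage, dissociated and fixed at once with acetic acid and methanol (ACME), stained with DAPI, sorted, and made into 1 Chromium 3′ library per genotype. Wild-type embryos were of the A2B2 strain according to the methods of the study. *MZwnt11f2/slb* embryos lacked both maternal and zygotic function of *wnt11f2*, a ligand of the planar cell polarity pathway, and the methods name the allele tx226. No treatment is given for either group, and the sources used here do not say how many embryos were pooled. With 1 library per genotype, genotype, clutch and library cannot be told apart and no test was made. All intervals are 95% intervals that cover counting error only.

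The chosen barcodes were 90 of 8862 in the wild-type library (1.02%, exact binomial interval 0.817 to 1.25) and 42 of 7911 in the *MZwnt11f2/slb* library (0.531%, 0.383 to 0.717). They held 328003 and 198364 UMIs. A chosen barcode held a median of 2843.5 UMIs in the wild-type library and 4647.5 in the other, against 3880 and 4594 in the barcodes not chosen. A chosen barcode had a median of 1308.5 and 1865.5 genes with a UMI. Wild-type chosen barcodes were therefore shallower than the rest of their library and *MZwnt11f2/slb* chosen barcodes were not. The share of mitochondrial UMIs had medians of 5.59% and 5.77% in the chosen barcodes. Of the barcode sequences, 16 occurred in both libraries, and 1 of the chosen wild-type barcodes was among them.

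The 3 genes that chose the barcodes were rare elsewhere, which is a description of the rule and not a result. *mxtx1* had 180 of its 225 wild-type UMIs and 89 of its 129 *MZwnt11f2/slb* UMIs in chosen barcodes, in 73 of 90 and 35 of 42 of them. *slc26a1* had 191 of 225 and 78 of 111 UMIs there, in 76 and 34 barcodes. *mxtx2* was sparser, with 21 of 35 and 17 of 35 UMIs in 17 and 9 barcodes. Both *mxtx1* and *slc26a1* were found in 59 wild-type and 27 *MZwnt11f2/slb* barcodes, and no barcode was chosen by *mxtx2* alone. The keratin limit kept out 2 barcodes of each library.

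Whether barcodes chosen by 2 UMIs carried the rest of the profile was read from the plasma protein genes, a list of 26 identifiers that the rule did not use and that was carried almost wholly by *afp4* and *tfa*. *afp4*, on 2 identifiers, encodes a type IV antifreeze-like protein, and *tfa* encodes transferrin, the iron carrier of plasma. In wild-type the list's summed level was 23.9 CPM (UMIs per 1000000 UMIs of the group) in the 7801 barcodes with none of the 3 genes, 1936 CPM in the 77 barcodes with 1 UMI just outside the threshold, 4951 CPM in the 29 barcodes with 2 UMIs just inside it, 9108 CPM in the 28 with 3 to 4, and 12368 CPM in the 33 with 5 or more. In *MZwnt11f2/slb* the same steps were 19.0 CPM in 6906 barcodes, 496.6 CPM in 78, 1348 CPM in 19, 5361 CPM in 8 and 7198 CPM in 15. The level was higher at each of these steps in both libraries and was lower at every step in *MZwnt11f2/slb*.

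At least 5 UMIs of the plasma protein list were found in all 61 wild-type and all 23 *MZwnt11f2/slb* chosen barcodes with 3 or more UMIs of the 3 genes. Among those with exactly 2 they were found in 24 of 29 (82.8%) and 9 of 19 (47.4%), and among barcodes with none of the 3 genes in 0.359% and 0.348%. By this list the barcodes with exactly 2 UMIs were not alike, and they were 29 of 90 chosen barcodes in wild-type and 19 of 42 in *MZwnt11f2/slb*. The list was lower at every step in *MZwnt11f2/slb*. Whether its smaller share there came from this lower level or from RNA of other cells was not tested. Per barcode the list ranged from 0 to 30960 CPM with a median of 11615 CPM in wild-type, and from 0 to 20202 CPM with a median of 3080 CPM in *MZwnt11f2/slb*.

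**Figure D1:**
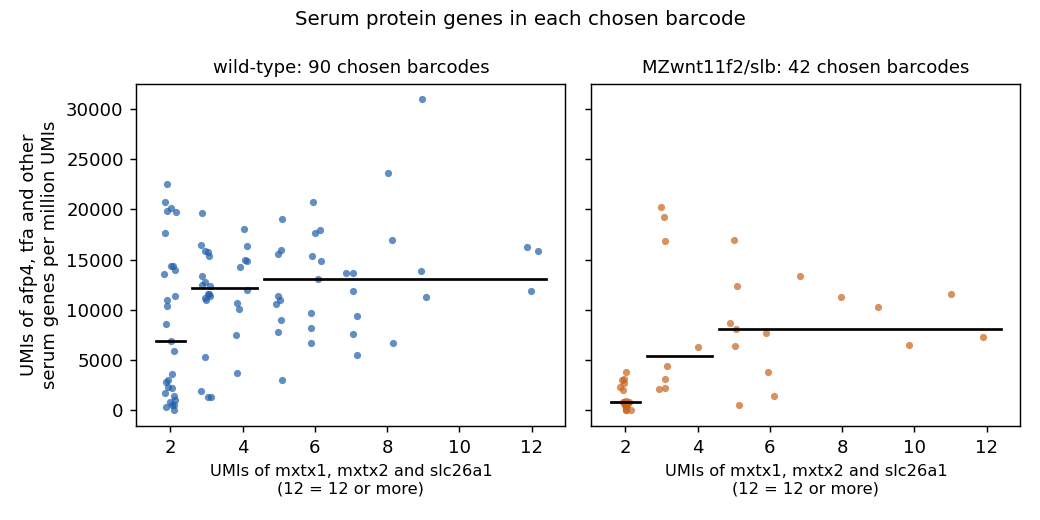
Summed level of the plasma protein list in CPM (vertical axis) in each chosen barcode, against its UMIs of *mxtx1*, *mxtx2* and *slc26a1* (horizontal axis, values of 12 and more drawn at 12); points are barcodes, shifted sideways at random to part them, and black bars are medians of the barcodes with 2, with 3 to 4 and with 5 or more UMIs. The *MZwnt11f2/slb* barcodes with 2 UMIs lie at a median of 828.5 CPM, and the wild-type ones at 6942 CPM.

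Across genes, chosen barcodes were compared with all other barcodes by summing UMIs, pooled over both libraries and then in each. Of 11750 genes with at least 100 UMIs in all, 629 (5.35%) were at least 2-fold higher in the chosen barcodes, pooled and in each library, and 274 (2.33%) were at least 2-fold lower. The 7 genes of the rule are not counted. The counts of higher and lower genes in each list below are to be read beside these shares of all measured genes. The median log2 ratio of all measured genes was −0.07. In 366 of the higher and 168 of the lower genes the counting interval lay clear of 0 in both libraries. Of the higher genes, 213 had at least 50 UMIs in the chosen barcodes, and 56 of these had a log2 ratio of at least 6. These 213 genes made up 144328 CPM of the chosen barcodes in wild-type and 105014 CPM in *MZwnt11f2/slb*, against 15717 and 15348 CPM in the others. As the barcodes were chosen by their own expression, all these ratios are descriptions.

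The genes furthest above the rest included those of lipid export, plasma proteins, yolk proteolysis and nutrient transport. Of the 25 with the largest ratios, 24 carry a symbol, and their log2 ratios ran from 7.53 for *pnp4a*, a purine nucleoside phosphorylase, to 8.61 for *apoa1b*, an apolipoprotein A-I. Summed over the 25, the level was 31488 CPM in wild-type and 19167 CPM in *MZwnt11f2/slb* chosen barcodes, against 139.1 and 94.8 CPM in the others. Only 1 of 90 and 0 of 42 chosen barcodes had no UMI of the 25 genes, whereas 7684 of 8772 and 6886 of 7869 other barcodes had none. The 25 genes were picked for their ratios in these same barcodes. Their sums, these counts and the shares of UMIs given below follow from that pick and are descriptions. Others of the 25 were *entpd1*, which encodes an enzyme that degrades extracellular nucleotides, at 7.79 (7.53 to 8.06), *anxa1a*, an annexin, at 7.65 (7.42 to 7.88), *slco1d1*, of the organic anion transporter family, at 7.94 (7.50 to 8.39), *lrrc15*, which encodes a leucine-rich repeat protein, at 7.87 (7.56 to 8.18), and *rltgr* at 7.97 (7.42 to 8.53). Between 59.1% and 79.9% of each gene's wild-type UMIs lay in the 90 chosen barcodes, with 34.4% to 65.0% of its *MZwnt11f2/slb* UMIs in the 42.

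Genes of lipoprotein assembly were among the highest. *mttp*, which encodes the microsomal triglyceride transfer protein that loads lipid onto apolipoprotein B, was at 2058 and 1648 CPM in the chosen barcodes of wild-type and *MZwnt11f2/slb* and at 8.58 and 7.31 CPM in the others, with a pooled log2 ratio of 7.91 (7.76 to 8.06). It had UMIs in 86 of 90 and 35 of 42 chosen barcodes. *pla2g12b*, needed in zebrafish for expanding lipoprotein particles, had a log2 ratio of 8.17 (7.73 to 8.62), with 95 and 33 UMIs in 50 and 17 chosen barcodes. Among the exchangeable apolipoproteins, *apoa1a* had a log2 ratio of 7.96 (7.52 to 8.40) and *apoc2*, the activator of lipoprotein lipase, 7.72 (7.46 to 7.98).

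*apoeb*, an apolipoprotein E gene with signal in the whole embryo, was at 7524 and 6609 CPM in chosen and at 1986 and 2039 CPM in other barcodes, a log2 ratio of 1.83 (1.79 to 1.88). *scarb2a*, a lysosomal scavenger receptor, had a log2 ratio of 2.60 (2.36 to 2.83). Of the 18 measured genes of the lipoprotein and lipid list 8 were called higher and none lower, with a list median of 1.17. *apobb.1*, an apolipoprotein B gene, had only 57 UMIs in the whole of both libraries and was not counted among them, but 36 wild-type and 5 *MZwnt11f2/slb* UMIs of these were in chosen barcodes. *apoba* had 62 UMIs and none of them in a chosen barcode.

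The 3 plasma protein identifiers that could be measured were all called higher. The larger *afp4* identifier, ENSDARG00000095863, was at 7085 CPM in wild-type and 3826 CPM in *MZwnt11f2/slb* chosen barcodes and at 28.8 and 17.2 CPM in the others, a log2 ratio of 8.01 (7.92 to 8.09), and had UMIs in 88 of 90 and 39 of 42 barcodes. The other, ENSDARG00000041490, had a log2 ratio of 8.10 (7.86 to 8.35), and reads may have been split between these copies. *tfa* had a pooled log2 ratio of 7.39 (7.15 to 7.63), but 288 of its 301 UMIs in chosen barcodes were wild-type. *fetub*, a fetuin of plasma that the list did not hold, was at 1064 and 968 CPM, with a log2 ratio of 7.86 (7.67 to 8.06). The other 23 identifiers of the plasma protein list, among them *ttr*, *fga* and *serpina1*, had fewer than 100 UMIs in all, so no call was made for these genes of the later liver.

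To compare these shares at an equal depth, each barcode was thinned to 1697 UMIs. Below this depth lay 23 of the wild-type and 5 of the *MZwnt11f2/slb* chosen barcodes, which were left out. Either identifier of *afp4* then had a UMI in 97.01% (89.6 to 99.6) of wild-type and 86.5% (71.2 to 95.5) of *MZwnt11f2/slb* chosen barcodes, and in 1.24% and 1.44% of the barcodes with no UMI of the 3 genes and fewer than 10 of the keratins. Unthinned, the shares were 98.9% and 92.9% in chosen barcodes, with 2.40% and 2.74% in the background. *mttp* was found in 89.6% and 67.6% after thinning, against a background of 0.542% and 0.465%. *hnf4a* was found in 56.7% and 43.2%, against 0.331% and 0.261%. For these 3 genes the share in chosen barcodes was far above the background in both libraries. All were among the genes picked for the largest ratios in these same barcodes, so this follows from that pick and is a description. The background also held no barcode with a UMI of the rule's genes, and so left out those just outside the threshold. The median depth of the background barcodes was 3752 and 4488 UMIs.

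Transcription factors of the endodermal and hepatocyte programmes accompanied these genes. *hnf4a*, a nuclear receptor that drives lipoprotein genes in liver and gut, was at 536.6 and 317.6 CPM in chosen and 3.19 and 1.61 CPM in other barcodes, a log2 ratio of 7.58 (7.30 to 7.87). *hnf1ba*, a homeodomain factor of liver, kidney and gut, had 89 and 22 UMIs in 53 and 14 chosen barcodes, with a log2 ratio of 7.76 (7.32 to 8.20). *cebpa*, a bZIP factor of hepatocytes, had a log2 ratio of 7.30 (6.92 to 7.68). *epas1a*, which encodes the hypoxia-inducible factor 2 alpha subunit, had a log2 ratio of 7.55 (7.24 to 7.86).

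Regulators known from the margin had smaller ratios, and other barcodes also held them. *gata6*, a zinc finger factor of YSL and endoderm, was at 1256 and 1038 CPM in chosen and 34.2 and 53.8 CPM in other barcodes, with a log2 ratio of 4.73 (4.60 to 4.85). *sox32*, the HMG-box factor required for endoderm and also made in the YSL, was at 902 and 1033 CPM against 71.8 and 98.7 CPM, with a log2 ratio of 3.47 (3.34 to 3.60). *foxa3* had a log2 ratio of 2.73 (2.55 to 2.90) and *gata5* of 2.29 (2.01 to 2.55). Of the 13 measured genes of this list 8 were called higher and 1 lower, with a median of 2.29. The lower one was *cebpb*, a bZIP factor, at 85.4 and 110.9 CPM against 312.7 and 301.9 CPM. Its direction turned with the reference: the barcodes with 10 or more keratin UMIs held *cebpb* at 2216 and 2047 CPM, and against other barcodes without these its log2 ratio was 3.40. *mixl1*, a Nodal target of the margin, had a log2 ratio of 1.10 (0.82 to 1.36), and *sebox* and *foxa2* were at −0.76 and −0.87 with 16 and 3 UMIs in chosen barcodes. Chosen after their values were seen, *nr0b2a*, which encodes a corepressor of nuclear receptors, and *onecut1*, a liver and pancreas factor, had log2 ratios of 7.51 and 7.36.

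**Figure D2:**
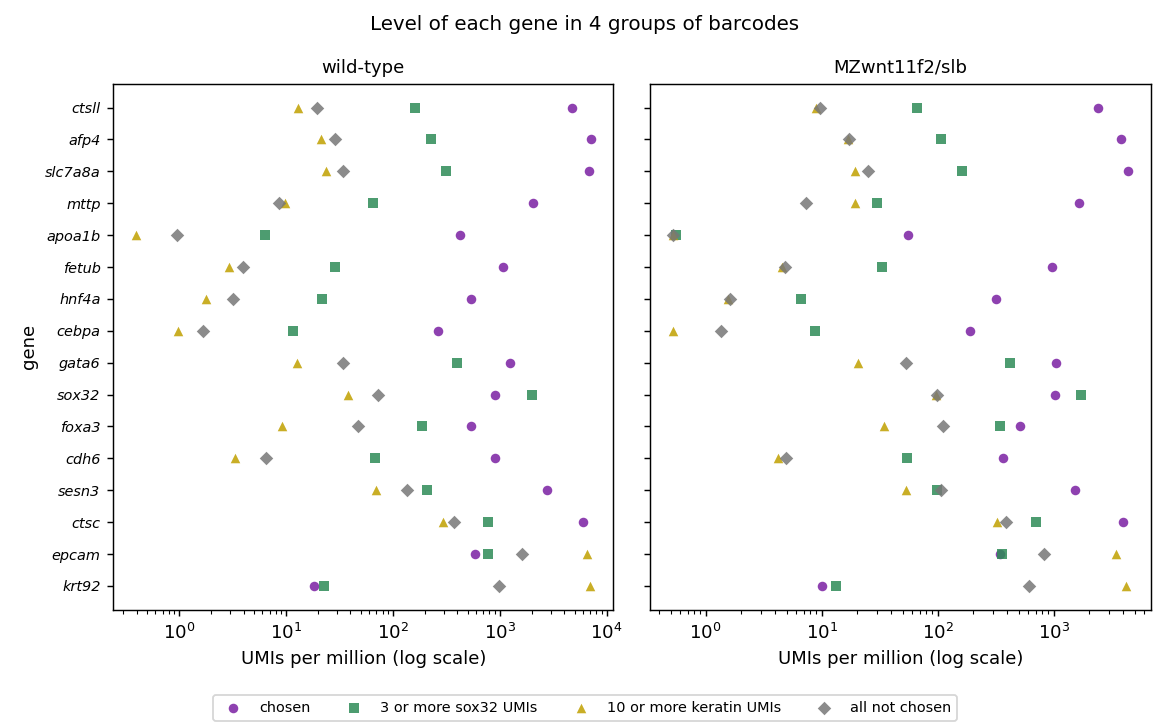
Level of 16 genes in CPM (horizontal log axis) in wild-type (left) and *MZwnt11f2/slb* (right), summed over the chosen barcodes, the barcodes with 3 or more *sox32* UMIs, those with 10 or more keratin UMIs, and all barcodes not chosen; *afp4* is the identifier ENSDARG00000095863, and groups with no UMI are not drawn. *hnf4a*, *mttp* and *afp4* are highest in chosen barcodes, *sox32* in the barcodes chosen by it, at 2011 and 1716 CPM, and *krt92* in those with keratin, at 7053 and 4172 CPM.

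Nutrient transport formed a further group. Among 183 measured solute carrier genes 28 were called higher and 4 lower, beside the 5.35% and 2.33% of all measured genes. Of the higher ones, 15 had at least 50 UMIs in chosen barcodes. *slc7a8a*, the light chain of a neutral amino acid exchanger, was at 6878 and 4356 CPM in chosen and 33.8 and 25.3 CPM in other barcodes, with a log2 ratio of 7.66 (7.58 to 7.73) and UMIs in 89 of 90 and 40 of 42 barcodes. Its heavy chain *slc3a2b* had a log2 ratio of 5.13 (4.90 to 5.36), the heavy chain copy *slc3a2a* 5.62, and *slc7a6*, which encodes another light chain, 5.21 (5.03 to 5.38). *slc43a2b* and *slc43a3b*, of a family of amino acid and nucleobase carriers, were at 6.65 and 8.03. Both chains of the heteromeric exchangers were thus higher in the chosen barcodes of each library.

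Carriers of metal ions and of anions were grouped after their values were seen. Of 19 measured genes of the zinc, copper and iron carrier families (names starting slc11, slc30, slc31, slc39 and slc40) 6 were called higher and none lower. *slc39a5* and *slc39a1*, zinc importers, had log2 ratios of 8.14 (7.74 to 8.55) and 5.95 (5.70 to 6.21). The zinc exporters *slc30a8* and *slc30a1a* were at 5.39 and 2.56, and *slc31a1*, the copper importer, at 2.27 (2.05 to 2.49). *slc4a4a*, a sodium bicarbonate cotransporter, had a log2 ratio of 7.46 (7.14 to 7.77), and *cahz*, a carbonic anhydrase, of 7.91 (7.47 to 8.37). *slc13a4*, a sulfate cotransporter, was at 6.36 (6.15 to 6.56).

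*spns2*, the sphingosine 1-phosphate exporter through which the zebrafish YSL is known to guide the migration of heart precursors, had 80 and 29 UMIs in 40 and 14 chosen barcodes and a log2 ratio of 7.50 (7.08 to 7.92). *abca1b*, a cholesterol and phospholipid exporter, was at 914.6 and 499.1 CPM against 27.0 and 15.3 CPM, a log2 ratio of 5.18 (5.02 to 5.34). Within the list of transporters named from yolk transport, 9 of 28 measured genes were higher and 2 lower. The lower ones were *atp1b1a*, a sodium pump subunit, at −1.29 (−1.56 to −1.03), and *cldnb*, a claudin of tight junctions, at −2.92 (−4.79 to −1.56). Without the keratin-rich barcodes in the reference *atp1b1a* was at −1.33 and *cldnb* at 1.81.

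Lysosomal proteases and sterol carriers were also raised. *ctsll*, a cathepsin L-like gene, was at 4704 and 2395 CPM in chosen and 19.6 and 9.72 CPM in other barcodes, a log2 ratio of 8.05 (7.94 to 8.15). *ctsc*, cathepsin C, was at 5960 and 3998 CPM against 370.2 and 385.7 CPM, with a log2 ratio of 3.79 (3.73 to 3.84). *npc1*, which exports cholesterol from the lysosome, had a log2 ratio of 3.46 (3.27 to 3.64), and its partner *npc2* 2.15. *ctsla* and *ctsba*, broadly present cathepsins, were at 2.12 and 2.02. Of 30 measured genes of the lysosome list 10 were higher and none lower, with a median of 0.84, whereas of 26 measured genes of endocytosis none was called in either direction and the median was −0.14. The endocytic receptor genes *cubn* and *lrp2a* had 50 and 34 UMIs in all and none in a chosen barcode.

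The secretory pathway as a whole was close to the other barcodes. Of 46 measured genes 3 were higher and none lower, with a median of 0.22. The higher ones were *xbp1*, the transcription factor of the unfolded protein response, at 1335 and 1134 CPM against 190.6 and 209.6 CPM (log2 ratio 2.65, 2.54 to 2.76), *herpud1*, a component of endoplasmic reticulum degradation, at 2.59 (2.08 to 3.06), and *kdelr2b*, a retrieval receptor, at 1.49 (0.89 to 2.04). Metabolic genes among the 25 highest were *fbp1b*, of gluconeogenesis, at 7.65 (7.41 to 7.89), and *hkdc1*, a hexokinase, at 7.89 (7.39 to 8.40). *hkdc1* was not in the list of glycolysis and its reverse, in which 2 of 20 measured genes were higher and none lower. These were *fbp1b* and *pck2*, of gluconeogenesis, the latter at 7.32 (6.96 to 7.67). None of the 13 mitochondrially encoded and none of the 77 measured ribosomal protein genes was called, with medians of 0.02 and −0.20.

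Matrix and adhesion genes differed in both directions. *cdh6*, a type II cadherin, was at 905.5 and 368.0 CPM in chosen and 6.48 and 4.90 CPM in other barcodes, with a log2 ratio of 6.96 (6.75 to 7.16). *cdh2*, N-cadherin, had a log2 ratio of 3.00 (2.82 to 3.17), *has2*, a hyaluronan synthase, of 2.40 (2.16 to 2.63), and *sdc4*, a syndecan, of 2.14 (2.03 to 2.24). The laminin chains *lama1* and *lamb1a* were at 2.55 and 2.08. Lower were the epithelial genes *cldne* at −3.67 (−4.20 to −3.19), *tjp3* at −1.41, *epcam* at −1.29 (−1.47 to −1.11) and *cldn7b* at −1.25. Of the 36 measured genes 8 were higher and 4 lower. Against other barcodes without 10 or more keratin UMIs 8 were higher and none was lower, with *epcam* at −0.28 and *cldne* at 1.21, so the 4 lower calls were made only with the keratin-rich barcodes in the reference.

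Of 42 measured actin and myosin genes 2 (4.76%) were higher and 5 (11.9%) lower, beside the 5.35% and 2.33% of all measured genes. *tpm4a*, a tropomyosin, had a log2 ratio of 4.52 (4.01 to 4.99) with 37 and 5 UMIs, and *myl6*, a myosin light chain, 1.32 (0.89 to 1.72). *pfn1*, profilin, was at 67.1 and 70.6 CPM against 613.6 and 498.6 CPM, at a ratio of −3.02 (−3.53 to −2.55) on the log2 scale. *tmsb1*, a thymosin, had 2 UMIs in chosen barcodes against 243.3 and 124.8 CPM elsewhere. Without the keratin-rich barcodes in the reference *pfn1* was at −0.05, *tmsb1* at −0.36 and *tmsb4x* at −1.06, and 1 gene, *zyx*, was called lower.

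**Figure D3:**
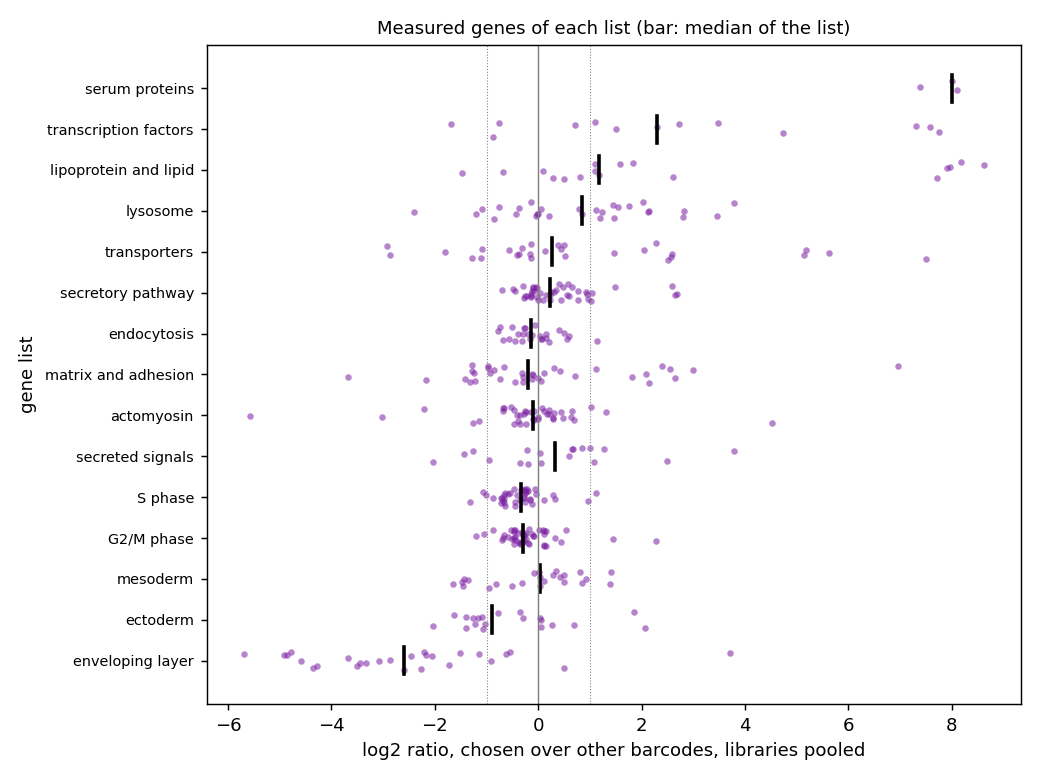
Pooled log2 ratio of chosen over other barcodes (horizontal axis) for each measured gene of 15 lists (rows); points are genes, shifted vertically at random, thick bars are list medians, and dotted lines mark a ratio of 2-fold either way. The plasma protein list has the highest median, 8.01, and the enveloping layer list the lowest, −2.59.

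Markers of other cell types gave the makeup of the chosen barcodes. The rule itself keeps keratin-rich barcodes out, so low enveloping layer genes follow from it in part. Of 29 measured genes of that list 15 were lower and 1, the plakophilin *pkp3b*, was higher, with a list median of −2.59. The summed level of the list also counts *krt4* and *cyt1* of the rule, so it is in part fixed by the rule. It was 2844 and 1906 CPM in chosen barcodes, 14062 and 12772 CPM in the others, and 98244 and 85410 CPM in the barcodes with 10 or more keratin UMIs. Of the last, *krt4* and *cyt1* made up 24130 and 5587 CPM in wild-type and 22969 and 4419 CPM in *MZwnt11f2/slb*. *klf6a* had no UMI in a chosen barcode. The 10 lowest genes with at least 500 UMIs, *ftr83*, *b3gnt5a*, *tmsb1*, *krt92*, *cldn23a*, *eps8l1b*, *stap2b*, *styk1b* and those without a symbol, had between 1 and 8 UMIs in the chosen barcodes, and against the reduced reference described next their ratios ran from −1.81 for *ftr83* to 0.12 for *krt92*.

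With the keratin-rich barcodes left out of the reference, the enveloping layer list turned to a median of 0.89, with 7 genes higher and none lower. Above 3 were *pkp3b*, at 3.62, and *krt8* and *krt18a.1*, partner keratins of simple epithelia that the rule did not use. *krt8* was at 1290 and 393 CPM in chosen barcodes, in 79 of 90 and 24 of 42 of them, and its log2 ratio was −1.14 against all other barcodes but 3.77 against those without keratin-rich ones. *krt18a.1* was at 826 and 897 CPM, in 74 and 36 barcodes, with ratios of −0.92 and 3.37. In the barcodes with 10 or more keratin UMIs *krt8* was at 15438 and 13584 CPM, and in those chosen by *sox32* at 340.3 and 101.0 CPM. The chosen barcodes thus lay between these groups for the simple keratins, whereas *krt92*, a keratin of the outer layer, was at 18.3 and 10.1 CPM in them and at 22.4 and 13.3 CPM in those chosen by *sox32*.

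Ectoderm genes were lower in the list's median (−0.90), with 4 of 20 called lower and 2 higher. *sox3*, of the neural ectoderm, was at 320.1 and 166.4 CPM against 782.0 and 598.5 CPM. The higher genes were *gata3*, a zinc finger factor of non-neural ectoderm, at 152.4 and 151.2 CPM against 46.2 and 38.8 CPM, and *dlx3b*, with 4 UMIs. Their log2 ratios were 1.84 and 2.06, and 5.12 and 3.14 against the reduced reference. The ectoderm list summed to 1765 and 1437 CPM in chosen and 3108 and 2971 CPM in other barcodes. Per wild-type barcode it ran from 0 to 4756 CPM with a median of 966.3 CPM among the chosen, and 16 of these 90 were at 0. In *MZwnt11f2/slb* the median was 1011 CPM, and 3 of 42 were at 0. UMIs of the list were therefore present in most of the chosen barcodes. Whether they came from cells caught together with the YSL or from free RNA was not tested, and no doublet caller was run.

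The mesoderm list differed in sign between the libraries. The list had 2 genes higher (*gsc* and *vent*) and 3 lower (*tbxta*, *eve1* and *cdx4*) of 24, and a pooled median of 0.03, but its median in the wild-type library was −0.83 and in the other 0.68. Summed, it was at 3216 CPM in chosen and 4643 CPM in other wild-type barcodes, and at 4986 CPM in chosen and 4061 CPM in other *MZwnt11f2/slb* barcodes. *tbxta*, the notochord and tail mesoderm T-box gene, had log2 ratios of −1.40 and −1.26. Germ cell genes were mixed, 1 of 13 higher (*dazl*) and 3 lower (*nanos3*, *dnd1* and *tdrd7a*), each with 18 or fewer UMIs in the chosen barcodes, and *dazl* was not called against the reduced reference.

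Of 11 measured endoderm genes 5 were higher and none lower, with a median of 1.51. The list summed to 3149 and 3403 CPM in chosen and 769.7 and 1144 CPM in other barcodes. In the barcodes chosen by *sox32*, itself a gene of the list, the list summed to 4419 and 4178 CPM, above the chosen barcodes. It shares *sox32*, *gata5*, *gata6* and *mixl1* with the regulators described above. *s1pr5a*, a sphingosine 1-phosphate receptor, was at 332.3 and 252.1 CPM against 11.5 and 13.1 CPM, with a log2 ratio of 4.62 (4.37 to 4.86). *sox17*, the endoderm factor downstream of *sox32*, had a log2 ratio of 1.51 (0.50 to 2.36) on 4 and 7 UMIs. *apela*, which encodes a ligand of the apelin receptor, and *cxcr4a*, a chemokine receptor, were at −1.17 and −0.94.

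Cell cycle genes were below the others in their list medians, by an amount that changed with the threshold. YSL nuclei are known to divide without cytokinesis in a few rounds and then to stop before gastrulation. Of 41 measured S phase genes 1 was higher and 1 lower with a median of −0.33, and of 48 measured G2/M genes 1 was higher and 1 lower with a median of −0.29, against the −0.07 of all measured genes. With at least 3 and at least 5 UMIs of the rule's genes the S phase median was −0.61 and −0.73. The G2/M median was −0.48 and −0.43 in the same order. The S phase list summed to 5052 and 6176 CPM in chosen and 6218 and 7306 CPM in other barcodes. *pcna*, the replication clamp, had a log2 ratio of −0.46, *cdk1* of −0.69 and *ccnb1* of −0.59. The 2 exceptions called higher were *cdt1*, which licenses replication origins, at 1.11 (0.96 to 1.26) but not called against the reduced reference, and *prc1a*, a midzone microtubule bundler, at 823.2 and 710.8 CPM against 157.1 and 165.1 CPM, or 2.28 (2.13 to 2.42).

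The list of secreted signals summed to 1515 and 1714 CPM in chosen and 1421 and 1428 CPM in other barcodes, with a median log2 ratio of 0.32. The Nodal ligands among them had few UMIs. The YSL is known as a source of Nodal ligands in earlier stages. *ndr1*, which encodes the ligand Squint, had 2 wild-type and 5 *MZwnt11f2/slb* UMIs in chosen barcodes, and *ndr2*, which encodes Cyclops, had 8 and 14. Their log2 ratios were 0.59 (−0.73 to 1.64) and 1.08 (0.40 to 1.69). After thinning, *ndr1* had a UMI in 0 of 67 wild-type chosen barcodes, which allows up to 5.36%, and in 3 of 37 in *MZwnt11f2/slb* (8.11%, 1.70 to 21.9), with backgrounds of 1.12% and 1.32%. *ndr2* had one in 5.97% and 5.41% against backgrounds of 2.61% and 4.05%, which lie within the intervals of 1.65 to 14.6 and 0.661 to 18.2. At this depth no level of either ligand apart from the background was detectable in wild-type.

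Of the 20 measured signal genes 2 were higher and 1 lower. *fgf17*, a fibroblast growth factor of the margin, had 29 and 17 UMIs and a log2 ratio of 3.79 (3.33 to 4.23). *fgf3* had 7 and 5 UMIs and a log2 ratio of 2.49 (1.52 to 3.31). *bmp4*, a ventral signal, was at −2.04 (−3.17 to −1.11) with 9 UMIs.

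Barcodes with at least 3 *sox32* UMIs, fewer than 10 keratin UMIs and outside the chosen set were taken as the most similar group, 258 in wild-type and 336 in *MZwnt11f2/slb*. They were chosen by *sox32* and held it at 2011 and 1716 CPM. *gata6* was at 396.9 and 416.9 CPM in them, lower than in the YSL set. *gata5* was higher in them than in the YSL set, at 424.7 and 356.2 CPM against 195.1 and 277.3 CPM. So was *mixl1*, at 355.6 and 328.6 CPM against 207.3 and 257.1 CPM. The 25 highest YSL genes summed to 1130 and 562 CPM in them. This was well below the 31488 and 19167 CPM of the chosen barcodes, in which the 25 genes were picked. It was above the 139.1 and 94.8 CPM of all barcodes not chosen. A small number of them supplied most of this level: without the 9 and 8 barcodes at 10000 CPM or more, it was 290 and 227.3 CPM. *hnf4a* was at 21.6 and 6.63 CPM in them and *mttp* at 64.7 and 29.8 CPM, against 536.6 and 317.6 CPM and 2058 and 1648 CPM in the chosen barcodes. In the barcodes with 10 or more keratin UMIs the 25 genes were at 109 and 98.4 CPM.

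The same sum was also read in each barcode, against a mark of 10000 CPM set after the values were seen. Its genes were picked for their ratios in these same chosen barcodes, pooled over both libraries, with more of the UMIs from wild-type. The sum therefore cannot judge the rule or compare the libraries independently, and the counts are a description. Of the chosen barcodes 76 of 90 in wild-type and 22 of 42 in *MZwnt11f2/slb* reached the mark. Of those not chosen, 40 and 14 reached it, with median totals of 1726 and 2421 UMIs, and 24 and 6 of these had 1 UMI of the 3 genes. In wild-type the chosen barcodes under the mark held *tbx16*, a margin mesoderm gene, at 1707 CPM and *sox3* at 640.0 CPM, close to the 1848 and 782.0 CPM of barcodes not chosen, and those at or above it held 648.9 and 192.1 CPM. In *MZwnt11f2/slb* the corresponding levels were 1931 and 247.6 CPM below and 626.3 and 82.1 CPM above.

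Between genotypes, the chosen barcodes were compared by the ratio of their summed UMIs, to ask how the YSL transcripts of *MZwnt11f2/slb* embryos compare with wild-type. The mutated gene itself, *wnt11f2*, had 52 UMIs in 35 of 90 wild-type and 5 UMIs in 5 of 42 *MZwnt11f2/slb* chosen barcodes, 158.5 against 25.2 CPM. The log2 ratio was −2.65 (−4.33 to −1.34), and −1.25 in the other barcodes, which held 98.8 and 41.5 CPM. In the barcodes chosen by *sox32* it was −2.10, at 141.9 and 33.1 CPM.

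Of 1810 genes with at least 50 UMIs in the chosen barcodes, 75 (4.14%) were at least 2-fold higher and 108 (5.97%) at least 2-fold lower in *MZwnt11f2/slb*. The split followed the scaling: relative to the summed UMIs of the 213 genes higher in chosen barcodes, a setting added after the values were seen, 282 genes were higher and 41 lower, and by the mean over barcodes of CPM 140 were higher and 144 lower. Scaled to all UMIs, the genes that mark the YSL were lower as a group. Of the 213 genes called higher in chosen barcodes 174 had a ratio below 0, with a median of −0.48, while the 1579 genes called in neither direction had a median of 0.10. The 213 genes were picked in these same barcodes, where they had 47340 wild-type and 20831 *MZwnt11f2/slb* UMIs. They therefore cannot compare the libraries independently. Scaled to their own total, which makes their sums equal, their median was −0.02. A larger share of the *MZwnt11f2/slb* chosen barcodes lay under the mark of 10000 CPM, but the genes summed for that mark are among these 213. A lower level of the 213 genes would itself put barcodes under the mark, so this share is no separate measure. A lower level per YSL nucleus and more RNA of other cells in a barcode cannot be told apart here. With the 76 and 22 barcodes at or above the mark alone, the median was −0.24. These barcodes were picked by some of the same genes.

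**Figure D4:**
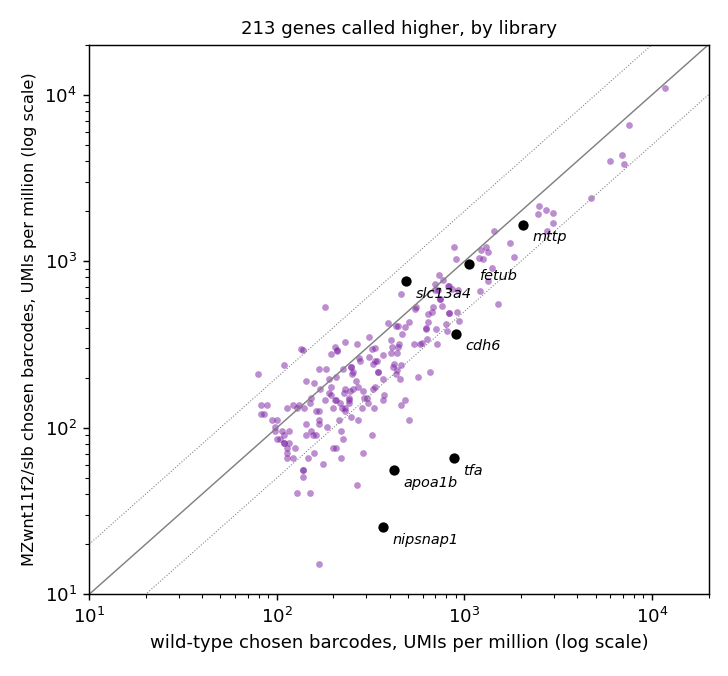
Level in CPM of the 213 genes called higher in chosen barcodes, in wild-type (horizontal log axis) and *MZwnt11f2/slb* (vertical log axis) chosen barcodes; the solid line marks equal levels and the dotted lines 2-fold. *tfa*, *apoa1b* and *nipsnap1* lie far below the lines, at 878.0 against 65.5, 423.8 against 55.5 and 368.9 against 25.2 CPM, while *mttp* and *fetub* lie near the line of equal levels.

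A few YSL genes stood below the group. *tfa* had 288 UMIs in 64 of 90 wild-type and 13 UMIs in 9 of 42 *MZwnt11f2/slb* chosen barcodes, with at most 21 and 4 in 1 barcode, a log2 ratio of −3.74 (−4.67 to −2.95). In the other barcodes the ratio of *tfa* was −0.41, and in the barcodes chosen by *sox32* it was −1.64 on 44 and 23 UMIs. *apoa1b* had 139 UMIs in 48 barcodes and 11 UMIs in 7, a log2 ratio of −2.93 (−3.97 to −2.05), and −0.84 in the others, whereas its paralogue *apoa1a* was at −1.11 (−1.80 to −0.47). In the barcodes chosen by *sox32* the ratio of *apoa1b* was −3.51, on only 7 and 1 UMIs. Scaled to the total of the 213 genes instead of all UMIs, *tfa* was at −3.29 (−4.21 to −2.49) and *apoa1b* at −2.48 (−3.51 to −1.59). In the barcodes at or above the mark of 10000 CPM *tfa* was at 1208 CPM in 59 of 76 wild-type and 112.9 CPM in 7 of 22 *MZwnt11f2/slb* barcodes. These levels rest on 283 and 11 UMIs. They are a description, as *tfa* was taken up for its low genotype ratio and the mark was set after the values were seen. The part of RNA from other cells was not tested.

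Unthinned, 71.1% of the wild-type and 21.4% of the *MZwnt11f2/slb* chosen barcodes had a *tfa* UMI, and after thinning 52.2% (39.7 to 64.6) of the wild-type ones had one, against 5.41% (0.661 to 18.2) in *MZwnt11f2/slb*, with backgrounds of 0.384% and 0.552%. For *apoa1b* the thinned shares were 50.7% (38.2 to 63.2) and 5.41% (0.661 to 18.2), with backgrounds of 0.106% and 0.0726%. By contrast *fetub* was found in 59.7% and 59.5%. These intervals are over barcodes of 1 library each, and both genes were taken up for their low genotype ratios, so the shares are a description.

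Other genes with a symbol at the low end were also low in the rest of the library. *nipsnap1*, which encodes a mitochondrial protein, had 121 and 5 UMIs (−3.87, −5.52 to −2.61) and −2.06 in the other barcodes. *mmel1*, a membrane metalloendopeptidase, had 55 and 3 UMIs (−3.47) and −6.70 in the others. *hcn5*, a cation channel gene, had 53 UMIs in 39 wild-type barcodes and none in *MZwnt11f2/slb*, at least 10.7-fold lower against a floor of 3 UMIs over the group. *mmel1* and *hcn5* passed the minimum of UMIs in the chosen barcodes only narrowly, and by their wild-type UMIs alone. A gene kept in this way with few or no UMIs in *MZwnt11f2/slb* must show a large fold, so both ratios are descriptions. Of the 108 genes past the fold downwards, 29 (26.9%) were also past it in the other barcodes, where 2.54% of the 1810 genes were. Of the 213 YSL genes 39 (18.3%) were past the fold downwards, against the 5.97% of all. This share is a description, as the 213 were picked in these same barcodes with more of their UMIs from wild-type. *rrm2*, of nucleotide synthesis, appeared at both ends, with 1 and 145 UMIs on 1 identifier and 168 and 0 on another, and with log2 ratios of 8.25 and −8.20 in the other barcodes.

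At the high end, apart from the *rrm2* identifier and 1 gene without a symbol, stood 6 genes of differing roles. *msgn1*, a bHLH factor of paraxial mesoderm, had 39 UMIs in 19 of 90 and 148 UMIs in 15 of 42 barcodes, a log2 ratio of 2.65 (2.13 to 3.20), and 0.26 in the other barcodes. *efnb2a*, an ephrin, was at 3.07 (2.26 to 3.97), *rnd1b*, a small GTPase, at 2.46, *acvr1ba*, an activin receptor, at 2.15, *hadh*, of fatty acid oxidation, at 2.09, and *aplnrb*, the apelin receptor, at 2.02. In the other barcodes these were at 0.64, 0.49, 0.15, 1.02 and −0.18, in the same order. Of these 6 genes, all but *hadh* had higher levels in the barcodes chosen by *sox32* than in the chosen barcodes, in both libraries. *hadh* was higher there in wild-type, at 77.2 against 42.7 CPM, and lower in *MZwnt11f2/slb*, at 158.5 against 181.5 CPM. *msgn1* reached 28 UMIs in 1 *MZwnt11f2/slb* barcode, and its level was 881.4 CPM in the 20 barcodes under the mark and 605.8 CPM in the 22 above it. For *efnb2a* these levels were 633.8 and 123.2 CPM, and for *aplnrb* 307.0 and 133.5 CPM. Of the 75 genes past the fold upwards, 5 were called higher in chosen barcodes and 14 (18.7%) were also past the fold in the other barcodes, where 1.27% of the 1810 genes were. Of 10 mesoderm list genes measured here 3 were higher and 1 lower, with a median of 0.31, beside the 4.14% and 5.97% of all 1810 genes. The part of RNA from other cells in these ratios was not tested.

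*krt8* was also lower in *MZwnt11f2/slb* chosen barcodes, with a log2 ratio of −1.71 (−2.08 to −1.36) against −0.13 in the other barcodes, while *krt18a.1* was at 0.12 (−0.16 to 0.40). The other barcodes include the keratin-rich ones, which held *krt8* at the highest level of the groups. In the barcodes chosen by *sox32* it was lower in *MZwnt11f2/slb* too, by the levels given above.

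The ratios of the YSL regulators lay on both sides of 0. *gata6* had a log2 ratio of −0.27 (−0.52 to −0.03), *sox32* of 0.20 (−0.07 to 0.46), *gata5* of 0.51 (−0.04 to 1.05), *foxa3* of −0.08, *cebpa* of −0.47 and *hnf4a* of −0.76 (−1.20 to −0.33), while *hnf1ba* was at −1.29 (−2.04 to −0.60). The rule genes *mxtx1* and *slc26a1* were at −0.29 (−0.67 to 0.08) and −0.57 (−0.97 to −0.18). Every chosen barcode had to hold UMIs of the rule genes, and the chosen barcodes were shallower in wild-type. These ratios are therefore shaped by the rule and by depth, and they do not compare the genotypes. *mttp* was at −0.32 (−0.52 to −0.13) and *fetub* at −0.14 (−0.40 to 0.12).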

How the data were processed

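The deposited matrices, 1 per genotype, were used. The deposited values were raw UMI counts per gene and barcode for 27597 genes, made by the authors with Cell Ranger. The matrix headers and processing notes name version 6.1.1, the methods another version, and the notes name the build GRCz11. Every deposited barcode was kept and doublets were not removed. Members and gene lists were chosen with earlier results of these data known.

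UMIs were summed over barcodes, and log2 ratios of CPM carry exact conditional intervals of 2 Poisson counts. A count of 0 was set to a floor of 3 UMIs over the group. A gene was called at a log2 ratio of 1 or more, or −1 or less, pooled and in each library. No sequence was printed, as no sequence table of this build was used here. Named were the rule genes, *wnt11f2* and, where they carry a symbol, the 25 highest and 10 lowest genes and the 8 largest and 8 smallest genotype ratios; of the lists, some of the most extreme genes. Solute carriers called higher with 50 UMIs, and others where stated, were chosen after their values were seen. Results of 1 gene list are not reported here. Intervals were tested on simulated data. Alternatives were other thresholds, scalings and reference barcodes. Of the gene symbols, 548 are on more than 1 identifier. Python 3.11.15, numpy 2.4.6, scipy 1.17.1, pandas 2.3.3 and matplotlib 3.10.9 were used.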

Additional observations from a re-analysis of the deposited data

Results flagged for a closer look

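In 7 named or listed genes with at least 50 UMIs in the chosen barcodes, the ratio of chosen to other barcodes lay below 0 in wild-type and above 0 in *MZwnt11f2/slb*, each with its counting interval clear of 0. The difference between the libraries was not tested, since there is 1 library per genotype. The log2 ratio of *efnb2a* differed by 2.43 (−1.38 in wild-type, 1.05 in *MZwnt11f2/slb*), of *msgn1* by 2.39 (−1.14 and 1.24), of *aplnrb* by 2.20 (−1.15 and 1.05) and of *acvr1ba* by 1.99 (−1.39 and 0.60). For *rnd1b* the difference was 1.97 (−0.79 and 1.18), for *pcdh8*, a protocadherin of paraxial mesoderm, 1.67 (−0.78 and 0.89), and for *apoc1*, an apolipoprotein, 0.89 (−0.30 and 0.59). *pcdh8* rested on 16 and 34 UMIs in 6 and 10 barcodes, whereas *apoc1* had 301 and 318 UMIs in 74 and 38.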

How the results depend on the processing

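The share chosen followed the threshold. In wild-type and *MZwnt11f2/slb* it was 0.688% and 0.291% with at least 3 UMIs of the 3 genes, 0.372% and 0.190% with at least 5, and 0.722% and 0.379% where at least 2 of the 3 genes had a UMI. It was higher in wild-type under all of the alternatives run for it.

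In the comparison with other barcodes, the mean over barcodes of CPM gave 468 genes lower, the reference without keratin-rich barcodes 170 lower, and a minimum of 1000 UMIs 185 higher. Without the demand for both libraries, wild-type alone gave 1506 higher and 1085 lower and *MZwnt11f2/slb* alone 1635 and 873. *krt92* turned from −5.70 to 0.12 without the keratin-rich barcodes, and in all 17 of 113 list genes called with either reference turned from below to above 0. The plasma protein list's median was between 7.39 and 8.25 over the alternatives, and 8.57 with the added setting of barcodes at 10000 CPM or more. Other lists followed the threshold. With at least 5 UMIs of the 3 genes the lipoprotein median went from 1.17 to 2.23, the lysosome median from 0.84 to 1.48 and the ectoderm median from −0.90 to −1.70. The secretory median was 0.48 with at least 3 UMIs and 0.22 with at least 5. Median-of-ratios scaling moved the median of all genes from −0.07 to −0.17.

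Between genotypes, the genes higher and lower in *MZwnt11f2/slb* numbered 47 and 44 with at least 3 UMIs of the 3 genes, 25 and 35 with at least 5, 6 and 13 with at least 200 UMIs per gene, and 1200 and 1220 with no minimum. The mean over barcodes of CPM gave 140 higher. Of the settings added after seeing the data, the barcodes at 10000 CPM or more gave 36 and 60, and scaling to the 213 genes 282 and 41. The median of the 213 genes was −0.67 by the mean over barcodes and −0.25 with at least 5 UMIs, the extremes apart from the added settings. Of the values of the 25 highest and 10 lowest genes and of the 16 genotype genes under all alternatives, 611 stayed within the counting interval, 121 moved outside it with the same sign and 1, *krt92*, changed sign. The cause of these moves was not tested. No paired analysis was possible because each genotype has 1 library, and no library could be left out. The planned promoter motif search was not run.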
